A study of Mus musculus with 35 samples.

Results

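The genes studied here are 8 members of the DNA methylation machinery, *Dnmt1*, *Dnmt3a*, *Dnmt3b*, *Tet1*, *Tet2*, *Tet3*, *Uhrf1* and *Mbd3*. They were taken as a named list, and all 8 were found by symbol among the 53465 genes of the bulk table and the 24262 genes of the single-cell tables. RNA came from dissociated mouse brain at E14.5, a day of embryonic development. For the bulk RNA-seq, microglia and endothelial, mural and neural cells were each sorted by fluorescence from 3 wild-type brains, called A, B and C here in the ascending order of their label numbers, which gave 12 libraries, 3 per population. For the scRNA-seq, made with mCEL-Seq2, a method that counts transcripts by molecular identifiers, single cells were sorted into wells of wild-type plates 1, 2 and 3 and of plates 4, 5 and 6, whose genotype is given only as Mof Knockout. *Mof* (*Kat8*) encodes a histone H4 lysine acetyltransferase. The allele, the Cre driver if there was one, and the sort gates of the knockout cells are not given in the sources used here.

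Methyl groups on cytosine, mostly at CpG dinucleotides, are set by DNMT3A and DNMT3B on unmethylated DNA and copied onto the new strand after replication by DNMT1, which UHRF1 brings to hemimethylated sites. The TET enzymes oxidise the methyl group, which is one route to its removal. MBD3 belongs to a family of methyl-CpG binding proteins and is a subunit of the NuRD complex, which joins histone deacetylases to chromatin remodellers. In the developing brain, neural progenitors divide and pass these marks on, and young neurons stop dividing.

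The gates were defined by surface proteins. Neural cells lacked the markers of the other gates, mural cells were high for PDGFRβ and endothelial cells carried PECAM1 and CD102. Microglia for the bulk libraries were sorted on CD11b and a medium level of CD45, while the deposited table of single wells names their gate as positive for CD41 and medium for CD45. Reads on genes ran from 17638358 to 98414914 per bulk library. Of the 15 markers listed for each population, 14 or 15 were highest in the population they mark. Of the neural markers, *Fabp7*, a lipid-binding protein of radial glia, was higher in mural than in neural cells (26942 against 7602 normalized counts), and *Nnat* (19808 against 56375) and *Sox11* (18062 against 38699) were high there too. These 3 made up most of the 53865 to 88449 normalized counts of that list in mural libraries (254898 to 267714 in neural ones), whereas the 10 markers of young neurons summed to 4652 to 6762 in mural and 144552 to 155105 in neural libraries. The 10 progenitor markers, *Fabp7* among them, went the other way, with 65389 to 80047 in mural and 49111 to 54142 in neural libraries. They summed to 43607 to 49547 in endothelial and 15473 to 15858 in microglial libraries. Of 6 fibroblast genes 5 were highest in mural cells, with a sum of 8873 to 11803 against at most 270 elsewhere, carried by *Col3a1* (5837) and *Col1a2* (3469), while *Dcn* (103) and *Lum* (47.8) were low and *Pdgfra* was at 0.313 there and 151 in neural cells. All 4 border macrophage genes were highest in microglia, with a sum of 8983 to 11743 against at most 994 elsewhere, led by *Mrc1* (9573). The 7 erythroid genes summed to 13054 to 34138 in endothelial libraries, 9042 to 11841 in neural, 1678 to 2075 in microglial and 242 to 598 in mural ones. The part of these other transcripts in the levels of the 8 genes was not tested. RNA of neural cells was extracted with a Qiagen mini kit and made into TruSeq libraries, whereas the other 3 populations went through a miRNeasy Micro kit, SMART-Seq v4 and Nextera XT, so in every bulk comparison with neural cells the population and the chemistry cannot be told apart. In bulk RNA, fewer cells of a type and less RNA per cell cannot be told apart either.

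Levels are normalized counts, reads per gene scaled between libraries by the authors, given in the order of brains A, B and C. *Dnmt1*, the maintenance methyltransferase (chr9:20907209-20959888, minus strand, mm10), was at 7242, 7016 and 7469 in neural cells. It was at 2951, 1774 and 2230 in mural cells, at 2348, 3374 and 2801 in endothelial cells and at 3805, 2451 and 2058 in microglia. All 3 neural libraries lay above all 9 others, and the other 3 populations overlapped. The share of all genes whose bulk libraries separate in this way was not counted, for this gene or those below. The neural level was 3.19-fold the mural level (log2 difference 1.67, SE 0.24, adjusted p = 1.7e-04, limma), 2.58-fold the endothelial level (1.37, SE 0.24, adjusted p = 6.8e-04) and 2.70-fold the microglial level (1.43, SE 0.24, adjusted p = 4.4e-04). Folds and differences from limma are on the log2(normalized count + 1) scale.

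*Uhrf1*, its partner at hemimethylated DNA (chr17:56303321-56323486, plus strand), also had its highest mean in neural cells, with 3198, 3395 and 3450. Mural cells held 1184, 834 and 1691, and microglia 2261, 1769 and 1987. Endothelial cells held 450, 2916 and 1938, a coefficient of variation of 70.2%, the widest of the 8 genes in any population. Neural libraries did not overlap those of any other population. The neural against mural difference passed the test (log2 difference 1.50, SE 0.55, adjusted p = 0.0376) but not under quantile normalization (1.21, adjusted p = 0.0691) or without the filter on low values (adjusted p = 0.0569). Those against endothelial cells (1.29, SE 0.55, adjusted p = 0.0625) and microglia (0.75, SE 0.55, adjusted p = 0.261) did not. Library A of the endothelial cells, at 450, also had the lowest sum of 18 replication and cell cycle genes in the series, 51600 against 61665 and 68207 in the other 2 endothelial libraries, and the part of that in its *Uhrf1* level was not tested. Single libraries decided these calls. The endothelial comparison passed without endothelial library B (1.84, adjusted p = 0.0112), the microglial one passed without endothelial library A (adjusted p = 0.0247), and the mural one failed without either of mural libraries A and B or any one of the neural or microglial libraries (adjusted p 0.0503 to 0.121).

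The levels of 18 replication and cycle genes are given beside those of *Dnmt1* and *Uhrf1*, and no difference between the list and these genes was tested. Their sum was 62936 ± 1418 normalized counts in neural cells and 72758 ± 8190 in mural cells, and it was 60490 ± 8365 among endothelial cells and 68691 ± 2140 among microglia (SD, n = 3). Against mural cells 4 of the 18 were higher in neural cells, 6 were lower and 8 did not pass, with a median log2 difference of -0.36 beside 0.14 over all genes tested (3, 9 and -0.59 under quantile normalization). In this pair 28.7% of all genes were higher in neural and 25.8% in mural cells. *E2f1*, which encodes a transcription factor of S phase genes, was at 1255 ± 46 in neural and 250 ± 97 in mural cells (log2 difference 2.41, SE 0.39, adjusted p = 3.8e-04), while *Ccne2*, a cyclin of the entry into S phase, was at 493 ± 17 and 2391 ± 631 (log2 difference -2.24, SE 0.22, adjusted p = 1.1e-05). *Gins2*, a replication fork component, was at 288 ± 23 and 1343 ± 231 (log2 difference -2.21, SE 0.37, adjusted p = 5.0e-04).

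The sequence around a start site is shown for *Dnmt1*, *Uhrf1*, *Dnmt3a* and *Dnmt3b*. These are RefSeq entries of GRCm38.p6, which run from 250 bases before to 50 bases after a transcript start and are written 5′ to 3′ on the gene's strand. For *Dnmt1* and *Uhrf1* the entry shown is the one that holds the motif searched below, not the one nearest the annotated start, and for *Dnmt3a* and *Dnmt3b* it is the nearest. The capitals mark the letters searched on both strands as an E2F motif, TTTCCCGC, TTTGGCGC, TTTCGCGC or TTTGCCGC, which 2.26% of the 32851 promoter entries hold. The *Dnmt1* entry is chr9:20952574-20952873 on the minus strand, 7265 bases inside the annotated gene, the *Uhrf1* entry is chr17:56304063-56304362 on the plus strand, 992 bases inside it, the *Dnmt3a* entry is chr12:3806730-3807029 on the plus strand, and the *Dnmt3b* entry is chr2:153649199-153649498 on the plus strand.

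Dnmt1: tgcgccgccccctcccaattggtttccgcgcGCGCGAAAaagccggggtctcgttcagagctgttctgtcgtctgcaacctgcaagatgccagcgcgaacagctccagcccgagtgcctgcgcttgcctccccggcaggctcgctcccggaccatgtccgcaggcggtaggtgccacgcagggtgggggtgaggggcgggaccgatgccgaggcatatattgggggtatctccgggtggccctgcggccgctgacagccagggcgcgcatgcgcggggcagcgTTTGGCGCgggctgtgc
Uhrf1: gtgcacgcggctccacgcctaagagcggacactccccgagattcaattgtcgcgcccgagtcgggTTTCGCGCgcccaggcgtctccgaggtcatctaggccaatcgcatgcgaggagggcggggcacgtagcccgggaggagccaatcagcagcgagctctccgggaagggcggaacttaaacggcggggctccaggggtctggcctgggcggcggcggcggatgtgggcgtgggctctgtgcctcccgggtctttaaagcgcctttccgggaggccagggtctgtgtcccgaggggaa
Dnmt3a: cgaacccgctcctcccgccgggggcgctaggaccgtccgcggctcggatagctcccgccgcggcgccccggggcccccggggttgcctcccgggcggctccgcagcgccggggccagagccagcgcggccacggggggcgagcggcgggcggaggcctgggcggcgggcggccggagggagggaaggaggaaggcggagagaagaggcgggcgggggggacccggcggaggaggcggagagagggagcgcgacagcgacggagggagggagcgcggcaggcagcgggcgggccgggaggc
Dnmt3b: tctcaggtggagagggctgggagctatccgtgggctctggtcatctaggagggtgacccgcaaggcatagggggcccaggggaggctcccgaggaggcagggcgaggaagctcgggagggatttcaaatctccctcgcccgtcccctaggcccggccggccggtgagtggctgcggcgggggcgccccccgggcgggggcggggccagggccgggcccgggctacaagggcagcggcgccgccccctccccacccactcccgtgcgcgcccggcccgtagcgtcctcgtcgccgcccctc

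The *Dnmt1* entry shown held 2 of the motifs and the *Uhrf1* entry 1, and no entry of the other 6 genes held any. Those 6 include *Tet3* and *Mbd3*, whose bulk means were also highest in neural cells. The other 2 entries of *Dnmt1* and the other entry of *Uhrf1* held none, and these data do not say which start is used. CpG dinucleotides numbered 33 in both the *Dnmt1* and the *Uhrf1* entry shown, 46 in that of *Dnmt3a* and 30 in that of *Dnmt3b*, against a median of 7 over all entries. The entries nearest the annotated starts of *Dnmt1* and *Uhrf1* held 2 and 12. The single entry of *Tet2* held 57, more than 99.8% of all entries, those of *Tet3* and *Mbd3* held 22 and that of *Tet1* held 17. A match describes the letters in this window and is neither a bound site nor a cause of a level.

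The 2 de novo enzymes were ordered differently. *Dnmt3a* (chr12:3806007-3914443, plus strand) was highest in microglia, with 10616, 13782 and 13603 normalized counts. It was at 6839, 6856 and 6664 in mural cells, at 5160, 4992 and 5250 in neural cells and at 2493, 3160 and 3365 in endothelial cells. No libraries of any 2 populations overlapped, and each step of this order passed the test. Microglia exceeded mural cells 1.85-fold (adjusted p = 3.3e-04), neural cells 2.45-fold (adjusted p = 1.1e-05) and endothelial cells 4.22-fold (adjusted p = 5.5e-07). Mural exceeded endothelial cells 2.28-fold (adjusted p = 7.9e-05), and neural exceeded endothelial cells 1.72-fold (adjusted p = 5.0e-04). The smallest step, neural minus mural, was -0.40 (SE 0.13, adjusted p = 0.025), and it did not pass without any single neural library or without mural library A or B (adjusted p 0.0558 to 0.077).

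*Dnmt3b* (chr2:153649450-153687730, plus strand) was highest in endothelial cells, with 1279, 1083 and 1354 normalized counts. It was at 396, 380 and 736 in mural cells, at 523, 355 and 297 in microglia and at 227, 208 and 235 in neural cells. The endothelial libraries lay above all others, and mural libraries and microglia overlapped. Endothelial cells exceeded neural cells 5.51-fold (adjusted p = 5.6e-05), microglia 3.24-fold (adjusted p = 0.00144) and mural cells 2.56-fold (adjusted p = 0.00747). The neural libraries lay below all others, with a log2 difference of -1.10 from mural cells (SE 0.31, adjusted p = 0.0108). That from microglia, -0.77 (SE 0.31), narrowly missed the threshold (adjusted p = 0.0506), and passed without mural library B (adjusted p = 0.0456) or C (0.0248) or without microglial library C (0.0341), under quantile normalization (-1.24, adjusted p = 0.00564) and under TMM scaling of the deposited values (-0.79, adjusted p = 0.049). Antisense genes overlap both loci, *Dnmt3aos* with at most 46.2 and *Dnmt3bos* with at most 19.7 normalized counts in any library, and whether the counting used strand is not given in the sources used here. On the member's own strand, *5430434F05Rik* (at most 288) overlaps *Tet3* and *Gm48353* (at most 22.8) overlaps *Tet1*.

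Levels were also divided by the annotated exon union in kilobases, which is 16642 bases for *Dnmt3a* and 5106 bases for *Dnmt3b*. On this scale endothelial cells were the bulk population where *Dnmt3b* exceeded *Dnmt3a*, although undivided counts of *Dnmt3a* were higher in each endothelial library. The union need not be the length of the transcripts present, so the gene that leads depends on it. The ratio of *Dnmt3b* to *Dnmt3a* was 1.67, 1.12 and 1.31 in endothelial libraries. It was 0.189, 0.181 and 0.360 in mural cells, 0.143, 0.136 and 0.146 in neural cells and 0.161, 0.0839 and 0.0712 in microglia. Being a ratio within a library, it is free of the scaling between libraries but not of a chemistry that favours one transcript. In the single-cell sums of endothelial cells, which count 3′ ends and need no length, the 2 genes were level on plate 1, *Dnmt3b* was higher on plate 2 (78.6 against 50.3 CPM, a gene's share of all transcripts at a common scale) and *Dnmt3a* on plate 3 (71.2 against 14.2). Per kilobase in bulk, *Mbd3* had the highest value of the 8 genes in neural cells (2163 ± 114 normalized counts per kb). It was followed by *Dnmt1* (982 ± 31) and *Uhrf1* (786 ± 31), and *Dnmt3b* had the lowest value (43.7 ± 2.7). This order rests on the exon unions too, that of *Mbd3* being the shortest at 1987 bases.

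**Figure D1:**
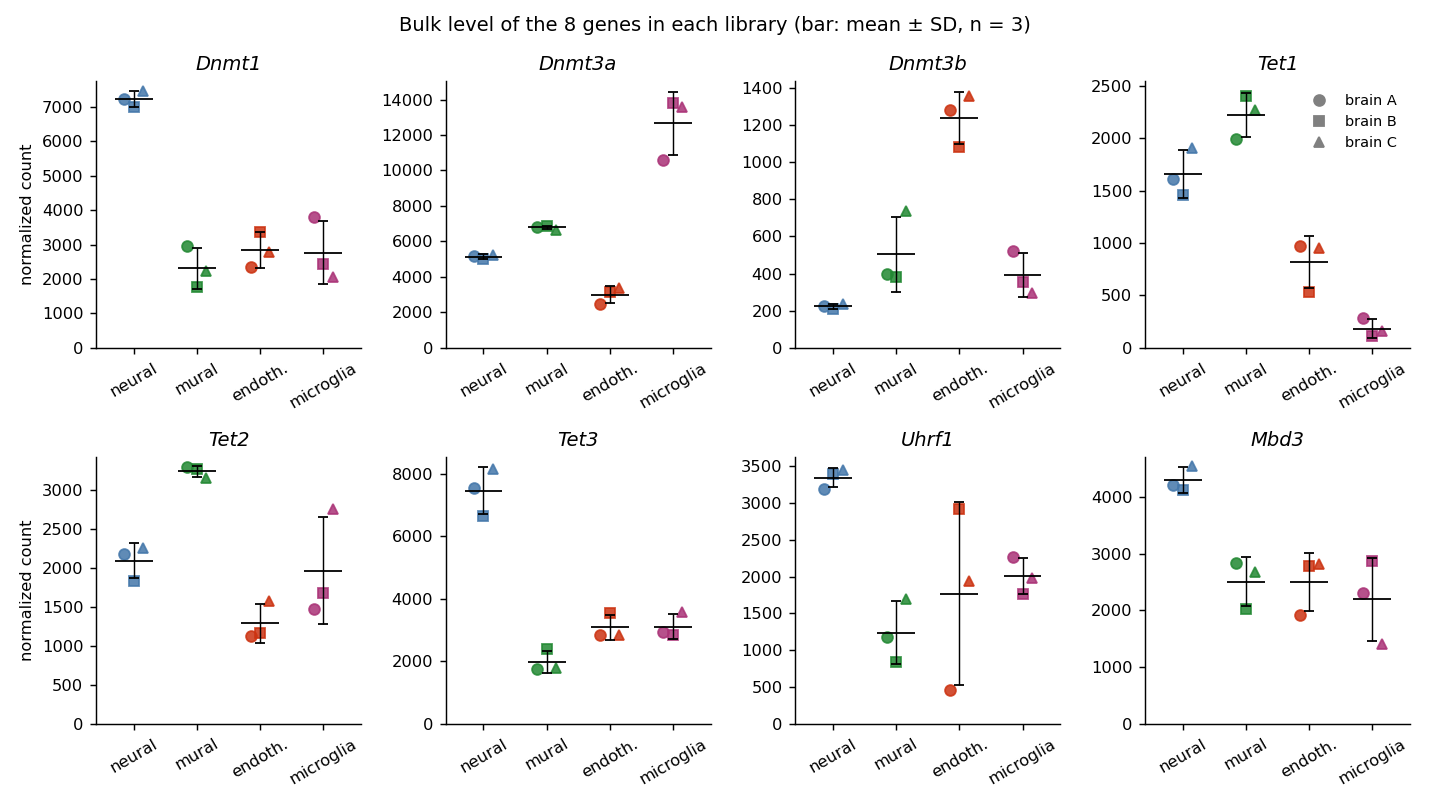
Normalized counts of the 8 genes in the 12 bulk libraries, on a linear axis from 0, with 1 panel per gene, 1 column per population, a symbol for each brain and the mean ± SD (n = 3). The neural libraries stand above all others for *Dnmt1*, *Tet3*, *Uhrf1* and *Mbd3*, the microglia for *Dnmt3a* and the endothelial cells for *Dnmt3b*, while *Tet1* is at 281 or less in microglia. The share of all genes that separate in this way was not counted.

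The 3 TET genes, whose products oxidise 5-methylcytosine, each had an order of their own. *Tet3* (chr6:83362373-83459084, minus strand) was at 7545, 6654 and 8157 normalized counts in neural cells, above all other libraries. Endothelial cells held 2837, 3553 and 2832, microglia 2934, 2821 and 3554, and mural cells 1741, 2389 and 1792. Neural cells exceeded mural cells 3.80-fold (adjusted p = 3.3e-06), endothelial cells 2.43-fold (adjusted p = 6.6e-05) and microglia 2.41-fold (adjusted p = 6.1e-05). Mural cells were lowest, with log2 differences of -0.65 from endothelial cells (SE 0.16, adjusted p = 0.0133) and -0.66 from microglia (SE 0.16, adjusted p = 0.00825). The first of these missed the threshold without mural library A (-0.56, adjusted p = 0.0506). Endothelial cells and microglia overlapped.

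*Tet1* (chr10:62804570-62908996, minus strand) spanned the widest range of the 8 genes, with a 12.1-fold ratio of the highest to the lowest population mean on the linear scale. It was at 1993, 2399 and 2272 normalized counts in mural cells, at 1611, 1458 and 1909 in neural cells, at 969, 534 and 955 in endothelial cells and at 281, 109 and 161 in microglia. No 2 populations overlapped. Microglia were below mural cells (12.9-fold, adjusted p = 8.3e-06), neural cells (9.63-fold, adjusted p = 1.2e-05) and endothelial cells (4.62-fold, adjusted p = 4.5e-04). Endothelial cells were below mural cells 2.80-fold (adjusted p = 0.00781) and below neural cells 2.08-fold (adjusted p = 0.0203). The last call was lost without endothelial library B (adjusted p = 0.0723), neural library A (0.0507) or neural library C (0.0728), and under quantile normalization (adjusted p = 0.11). Neural and mural cells did not differ past the threshold (log2 difference -0.43, 95% interval -1.18 to 0.33, adjusted p = 0.317).

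*Tet2* (chr3:133463679-133545139, minus strand) was highest in mural cells, at 3293, 3268 and 3157 normalized counts. It was at 2181, 1836 and 2259 in neural cells, at 1469, 1672 and 2748 in microglia and at 1123, 1165 and 1576 in endothelial cells. Mural libraries lay above all others and microglia overlapped both neural and endothelial cells. Mural cells exceeded endothelial cells 2.54-fold (adjusted p = 0.00127), microglia 1.71-fold (adjusted p = 0.0195) and neural cells 1.55-fold (adjusted p = 0.0344), and neural cells exceeded endothelial cells 1.64-fold (adjusted p = 0.02). Under quantile normalization that last difference, 0.71 on the log2 scale, was 0.42 and did not pass (adjusted p = 0.132), and the mural excess over neural cells did not pass without the filter on low values (adjusted p = 0.0511). The difference from neural cells passed in none of the fits that left out 1 mural or 1 neural library (adjusted p 0.0575 to 0.118), that from microglia failed without mural library A or microglial library A or B (adjusted p 0.0515 to 0.0729), and the neural excess over endothelial cells failed without endothelial library A or B or neural library A or C (adjusted p 0.0539 to 0.0682). Endothelial cells and microglia did not differ past the threshold in the fit of all libraries (log2 difference -0.57, SE 0.23, adjusted p = 0.0797), but did without endothelial library C (-0.72, adjusted p = 0.0445) or microglial library A (-0.75, adjusted p = 0.035).

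**Figure D2:**
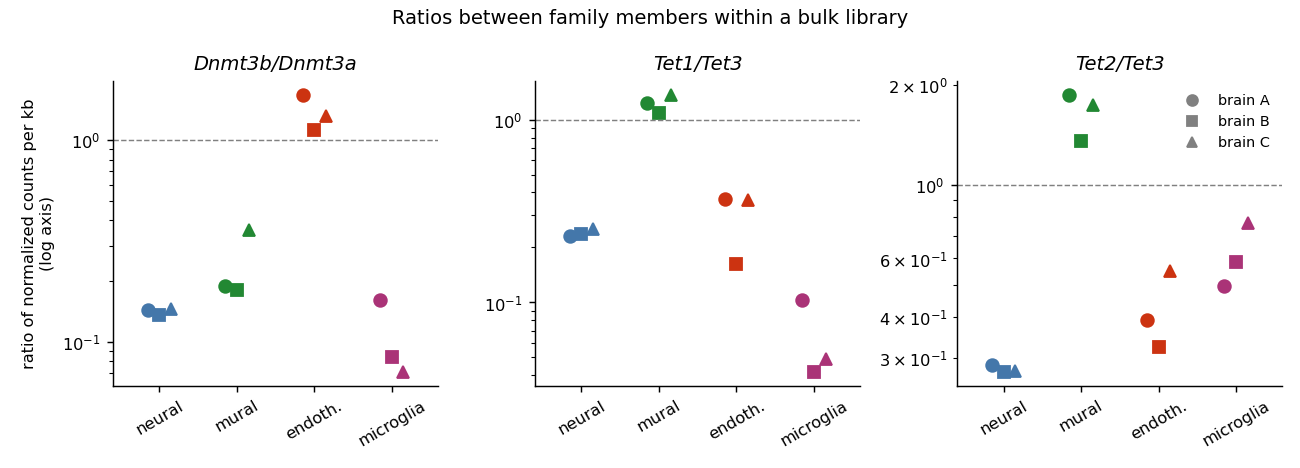
Ratios of normalized counts per kilobase of exon within each bulk library on a log axis, with a dashed line at 1 and a symbol for each brain. On this scale, which depends on the exon lengths used, *Dnmt3b* exceeds *Dnmt3a* in the 3 endothelial libraries. *Tet1* and *Tet2* exceed *Tet3* in the 3 mural libraries.

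Within a bulk library the TET balance separated mural cells from the rest. Per kilobase, the ratio of *Tet1* to *Tet3* was 1.24, 1.08 and 1.37 in mural cells, and the ratio of *Tet2* to *Tet3* was 1.87, 1.35 and 1.74. In neural cells the same ratios were 0.231, 0.237 and 0.253 for *Tet1* and 0.286, 0.273 and 0.274 for *Tet2*. In microglia *Tet1* to *Tet3* was 0.103, 0.0418 and 0.0490, and in endothelial cells 0.369, 0.162 and 0.364. *Tet2* to *Tet3* came closer to the mural values, at 0.496, 0.587 and 0.765 in microglia and 0.392, 0.325 and 0.551 in endothelial cells. *Tet3* was thus the leading TET gene in all 9 libraries of neural cells, endothelial cells and microglia, and *Tet2* in the 3 of mural cells. The single-cell sums, which count 3′ ends and need no length, did not show this. There *Tet3* led in mural cells on all 3 plates, with a ratio of *Tet2* to *Tet3* of 0.607, 0.579 and 0.333 on plates 1, 2 and 3, against 0.464, 0.583 and 0.333 in endothelial cells, and a ratio of *Tet1* to *Tet3* of 0.304, 0.513 and 0.111.

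*Mbd3* (chr10:80392539-80399550, minus strand) had the narrowest range, 1.96-fold between the highest and the lowest mean on the linear scale. It was at 4217, 4122 and 4552 normalized counts in neural cells, at 2829, 2018 and 2667 in mural cells, at 1915, 2779 and 2823 in endothelial cells and at 2298, 2863 and 1410 in microglia. The neural libraries lay above all others, which overlapped. Neural cells exceeded microglia 2.04-fold (adjusted p = 0.0048), endothelial cells 1.74-fold (adjusted p = 0.0195) and mural cells 1.73-fold (adjusted p = 0.0213). The mural call was lost without mural library B or neural library A or C (adjusted p 0.0526 to 0.079) and under quantile normalization (adjusted p = 0.0604), and the endothelial call without endothelial library A (adjusted p = 0.0721) or neural library C (adjusted p = 0.0614).

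Counted together, 7 of the 8 genes passed between neural and mural cells (4 higher in neural cells and 3 in mural cells) and 7 between neural and endothelial cells (6 and 1). Between neural cells and microglia 5 passed (4 and 1). When 1 library was left out these counts ran from 3 to 7, from 4 to 7 and from 5 to 6, and under quantile normalization they were 5, 5 and 6. They stood beside a background in which most genes passed, 54.6% of the 19765 tested between neural and mural cells (28.7% higher in neural and 25.8% higher in mural cells), 57.7% between neural and endothelial cells (30.6% and 27.1%) and 59.8% between neural cells and microglia (30.4% and 29.3%). Among the populations that shared 1 chemistry, 5 of 8 passed between mural and endothelial cells, 3 higher in mural and 2 in endothelial cells (background 27.8%, with 13.5% and 14.3% by direction). Between mural cells and microglia 4 passed, 2 in each direction (38%, with 17.9% higher in mural cells and 20.1% in microglia), and between endothelial cells and microglia 3 passed, 2 higher in endothelial cells and 1 in microglia (32.4%, with 15.3% and 17%). The 3 shares against microglia are near their backgrounds and say nothing particular to these genes. The fit shares 1 variance per gene over all 12 libraries, and replicate libraries varied least in neural cells. With only the 2 populations in the fit, 4 of 8 passed between mural and endothelial cells, where fewer of all genes passed too. Against microglia 3 of 8 passed for mural and 3 of 8 for endothelial cells in such fits. Quantile normalization moved the median log2 difference of all genes between neural cells and, in turn, the mural, endothelial and microglial libraries from 0.14, 0.17 and 0.08 to -0.08, -0.05 and -0.09, and under it no called difference of the 8 genes changed sign, although 4 calls were lost and 1 was gained.

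The other genes of the pathway were taken from lists of partners. Of 9 partners of the methyltransferases that could be tested, 5 were higher in neural than in mural cells and none was lower, with a median log2 difference of 1.10 beside 0.14 over all genes (5 and 1, with a median of 0.80, under quantile normalization). The background of this pair, 28.7% of all genes higher in neural and 25.8% higher in mural cells, holds for the counts of the other lists against mural cells as well. *Trim28*, a corepressor that recruits silencing factors, was at 15822 ± 569 in neural and 3892 ± 783 in mural cells (log2 difference 2.04, SE 0.17, adjusted p = 2.5e-06). *Zfp57*, a zinc finger protein that protects methylation at imprinted loci, was at 7489 ± 207 in neural cells and 217 ± 94 in microglia (5.18, SE 0.41, adjusted p = 1.3e-06), and *Cdca7l* was at 165 ± 165 in endothelial cells and 593 ± 11 in microglia (-2.73, SE 0.88, adjusted p = 0.0357). *Dnmt3l*, a cofactor of de novo methylation in germ cells, did not reach the minimum level for a test.

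Of 12 tested genes that act with the TET enzymes or in base excision, 4 were higher and 5 lower in neural than in mural cells, with a median of -0.08 (3, 6 and -0.53 under quantile normalization). Against endothelial cells 6 were higher and 3 lower (3 and 5 under quantile normalization), beside 30.6% and 27.1% of all genes. Against microglia 5 were higher and 2 lower (5 and 4), beside 30.4% and 29.3%. The medians of these 2 pairs were 0.53 and 0.42. *Cxxc4*, which encodes a CXXC protein that binds TET2, was at 2843 ± 124 in neural cells and 18.5 ± 5.0 in microglia (log2 difference 7.22, SE 0.54, adjusted p = 9.1e-07). *Gadd45b*, a stress gene tied to demethylation, was at 55.1 ± 13.8 in neural and 3565 ± 716 in mural cells (-6.00, SE 0.31, adjusted p = 1.1e-07), and *Neil2*, a DNA glycosylase, was at 82.3 ± 5.0 and 1.32 ± 1.42 (5.37, SE 1.21, adjusted p = 0.00318). The mural level of *Neil2* is near 0, so the size of its log2 difference depends on the pseudocount of 1. Of the 9 other readers, 5 were higher and 1 lower in neural than in mural cells, with a median log2 difference of 1.02 (3 and 2 under quantile normalization). *Mbd6* was at 3938 ± 148 and 138 ± 11 (4.83, SE 0.43, adjusted p = 4.5e-06), *Zbtb38* at 906 ± 35 and 6059 ± 1016 (-2.73, SE 0.13, adjusted p = 8.0e-08), and *Zbtb33*, which encodes Kaiso, at 3110 ± 7 in neural cells and 61.9 ± 28.1 in microglia (5.72, SE 1.30, adjusted p = 0.00288).

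Of the 12 partners of MBD3 in NuRD, 8 were higher and 2 lower in neural than in mural cells, with a median log2 difference of 1.21. *Chd3*, a remodeller subunit, was at 23818 ± 1661 in neural cells and 832 ± 189 in microglia (log2 difference 4.86, SE 0.19, adjusted p = 1.2e-08). *Chd5*, the neuronal remodeller subunit, was at 2153 ± 125 in neural and 7.09 ± 12.28 in endothelial cells (9.58, SE 1.20, adjusted p = 5.8e-05), and *Hdac2*, a deacetylase subunit, was at 10287 ± 81 in neural cells and 1517 ± 309 in microglia (2.78, SE 0.21, adjusted p = 1.1e-06). The endothelial level of *Chd5* is near 0, so the size of its log2 difference depends on the pseudocount of 1. Between mural and endothelial cells, which shared their chemistry, 1 NuRD gene was higher in mural cells and 2 were lower (2 and 2 under quantile normalization and under TMM), where 27.8% of all genes were called. Of the methyltransferase partners 0 of 9 and of the readers 0 of 9 were called there by limma or by edgeR on the recovered reads, and at an unadjusted p under 0.05 limma had 0 and 1. Of the 12 other genes of TET-initiated demethylation and base excision, 4 were higher and 2 lower in mural cells (4 and 1 under quantile normalization), and of the 18 replication and cycle genes 3 were higher and 0 lower (2 and 0 by edgeR on the recovered reads).

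The genes whose levels most resembled each member over the 12 bulk libraries were taken by Pearson's r of log2(normalized count + 1), given as a description with no test. They were *Map2k7* for *Dnmt1* (r = 0.98), *Lsp1* for *Dnmt3a* (0.98), *Htra3* for *Dnmt3b* (0.97), *Eml1* for *Tet1* (0.98), *Tulp4* for *Tet3* (0.99), *Pip4k2c* for *Uhrf1* (0.96) and *Snn* for *Mbd3* (0.95). *Gm37940* led for *Tet2* (0.94). The 12 points share a chemistry by population and fall into 4 clusters. Among the members themselves *Dnmt1* and *Tet3* were most alike (r = 0.86), then *Dnmt1* and *Mbd3* (0.85) and *Dnmt1* and *Uhrf1* (0.72).

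In the single-cell data all 4 gates went through 1 protocol on the same plates, so the same genes were compared without the difference in chemistry. Of the wells with a gate, 123 neural, 210 mural, 225 endothelial and 128 microglial cells had more than 1500 transcripts. Plate 3 gave 43 of them. By the marker genes, 100% of the neural and microglial cells, 92.4% of the mural cells and 92.4% of the endothelial cells fell in the class of their gate. Levels are CPM of the transcripts summed per gate and plate, in the order of plates 1, 2 and 3. By the paper, equal numbers of these cells were taken from 3 wild-type brains. Whether a plate held 1 brain is not given, so p-values measure the spread between plates. In the mural, endothelial and microglial sums of plate 3, 1 transcript was worth 13.7 to 19.7 CPM. The SE given with an edgeR difference is its absolute log2 difference divided by the square root of the F statistic of the test.

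*Tet3* was again highest in neural cells, at 186, 213 and 164 CPM. Mural cells held 88.7, 89.8 and 124, endothelial cells 87.6, 75.4 and 85.5, and microglia 78.4, 73.0 and 19.7. The neural values lay above all others, and the log2 differences were 1.08 from mural cells (SE 0.27, adjusted p = 0.00116, edgeR quasi-likelihood test), 1.11 from endothelial cells (SE 0.28, adjusted p = 8.7e-04) and 1.15 from microglia (SE 0.28, adjusted p = 5.6e-04). *Tet3* was found in 67.5% of neural cells (exact 95% interval 58.4 to 75.6) against 41.3% to 47.7% in the other gates, and in 24.4% against 10.9% to 11.9% when every cell was thinned to 1500 transcripts. Intervals of this kind cover counting error only.

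*Dnmt3b* was again highest in endothelial cells, at 74.0, 78.6 and 14.2 CPM. Mural cells held 25.3, 21.3 and 27.5, microglia 16.3, 10.9 and 19.7, and neural cells 6.64, 11.8 and 0. On plates 1 and 2 the endothelial values lay above all others, and on plate 3 the value of 14.2 was 1 transcript. The log2 difference of neural from endothelial cells was -3.18 (SE 0.49, adjusted p = 3.0e-07), that of mural from endothelial cells -1.72 (SE 0.37, adjusted p = 1.8e-04) and that of endothelial cells from microglia 2.16 (SE 0.41, adjusted p = 1.9e-05). The neural difference from mural cells, -1.46, just missed the threshold (adjusted p = 0.0506) and passed without plate 3 (-1.50, adjusted p = 0.0249). A *Dnmt3b* transcript was found in 34.2% of endothelial cells (28.0 to 40.8, median depth 6408 transcripts) and in 5.69% of neural cells (2.32 to 11.4, median depth 7717).

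*Dnmt3a* had its lowest mean in endothelial cells here too, at 74.0, 50.3 and 71.2 CPM, against 126, 118 and 98.5 in neural cells, 176, 180 and 68.7 in mural cells and 124, 151 and 59.1 in microglia. On plate 3 the mural and microglial values were below the endothelial one. Thinned to 1500 transcripts, a *Dnmt3a* transcript was found in 6.25% of microglia and 8.44% of endothelial cells in the single draw made, whereas the shares expected over all draws were 16.9% and 9.08%, so no order is read from the draw. The log2 difference of mural from endothelial cells was 1.21 (SE 0.29, adjusted p = 0.00115), that of endothelial cells from microglia -1.18 (SE 0.30, adjusted p = 0.00129) and that of neural from endothelial cells 0.77 (SE 0.31, adjusted p = 0.0477). The last was lost at a minimum of 3000 transcripts per cell (adjusted p = 0.0803), with no minimum (0.104) and without the filter on low counts (0.275). The excess of microglia over mural cells, called in bulk, was not seen in the sums (mural minus microglial 0.03, SE 0.27, adjusted p = 0.942), nor was their excess over neural cells called (-0.40, SE 0.29, adjusted p = 0.279). The difference between the assays was not tested.

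*Tet1* was nearly missing from microglia, with 4.44, 0 and 19.7 CPM, which were 4 transcripts in all. Neural cells held 86.4, 54.4 and 10.9, mural cells 26.9, 46.1 and 13.7, and endothelial cells 28.1, 22.0 and 42.7. Plate 3 broke the separation, since its 1 microglial transcript was worth more CPM than its neural value. The log2 difference from microglia was 4.01 in neural cells (SE 0.65, adjusted p = 5.4e-07), 3.19 in mural cells (SE 0.69, adjusted p = 1.2e-04) and 2.91 in endothelial cells (SE 0.72, adjusted p = 8.1e-04). A *Tet1* transcript was found in 3.12% of microglia (0.858 to 7.81), the deepest cells with a median of 10761 transcripts, and in 30.9% of neural cells (22.9 to 39.9). The neural difference from endothelial cells also passed (1.11, SE 0.42, adjusted p = 0.0306), although the order was reversed on plate 3, and it was 0.36 without plate 1 (adjusted p = 0.849).

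The 2 maintenance genes were not called as in bulk. *Dnmt1* was at 111, 135 and 43.8 CPM in neural cells, at 105, 85.1 and 124 in mural cells, at 77.2, 66.0 and 14.2 in endothelial cells and at 56.2, 60.6 and 39.4 in microglia, and no pair of gates was called. The largest of its differences, neural minus microglial, was 0.67 (SE 0.32, adjusted p = 0.0802), and it passed without plate 3 (0.68, adjusted p = 0.0264) and with the plate as a block (0.71, adjusted p = 0.0494). *Uhrf1* was at 46.5, 7.10 and 0 CPM in neural cells, at 52.2, 44.9 and 96.1 in mural cells, at 44.8, 29.9 and 0 in endothelial cells and at 50.3, 59.1 and 39.4 in microglia. Neural cells had the lowest value on plate 2 and shared a value of 0 with endothelial cells on plate 3, and their difference from microglia was called in the direction opposite to the bulk mean (-1.42, SE 0.46, adjusted p = 0.00848). That call was lost without plate 2 (-0.80, adjusted p = 0.498) and with DESeq2 (-1.44, adjusted p = 0.227). The neural difference from mural cells, also opposite to the bulk call, was -1.08 (SE 0.46, adjusted p = 0.0638). It passed with the plate as a block (-1.12, adjusted p = 0.0309) and without plate 1 (-3.45, adjusted p = 0.00498), and it did not pass without plate 2 or plate 3. The difference between the 2 assays was not tested.

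*Mbd3* was at 137, 118 and 109 CPM in neural cells, at 127, 109 and 41.2 in mural cells, at 64.6, 64.4 and 57.0 in endothelial cells and at 85.8, 69.9 and 39.4 in microglia. Neural and endothelial cells did not overlap, and that difference was called (log2 difference 0.85, SE 0.30, adjusted p = 0.0208). *Tet2* varied little between gates, with 42.6 to 46.5 CPM in neural cells, 41.2 to 53.8 in mural cells, 28.5 to 44.0 in endothelial cells and 0 to 45.9 in microglia, and no pair was called. Of the 8 genes, 1 was called between neural and mural cells (background 33.1% of 9281 genes), 5 between neural and endothelial cells (36.4%), 3 between neural cells and microglia (44.3%), 2 between mural and endothelial cells (20.7%), 1 between mural cells and microglia (37.7%) and 3 between endothelial cells and microglia (36.2%). Without plate 1 or plate 2, where plate 3 with its 43 cells becomes 1 of 2 replicates, the calls of *Dnmt3a* and *Mbd3*, that of *Tet1* between neural and endothelial cells and those of *Tet3* against mural and endothelial cells were lost (adjusted p 0.216 to 0.849), and without plate 2 also those of *Tet3* between neural cells and microglia (0.0865) and of *Tet1* in microglia against mural and endothelial cells (0.278 and 0.122). *Dnmt3b* was too low to be tested without plate 1 or plate 2, and of the fits without 1 plate its 3 calls could be checked only in the one without plate 3, where they passed. DESeq2 did not call *Dnmt3a*, *Tet1* and *Mbd3* between neural and endothelial cells (adjusted p 0.174 to 0.72), *Dnmt3a* and *Dnmt3b* between mural and endothelial cells (0.0998 and 0.259) or *Dnmt3a* between endothelial cells and microglia (0.133).

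The partner lists were counted in the sums too. Between neural and mural gates, 2 of the 6 tested partners of the methyltransferases were higher in neural cells and 0 lower (edgeR, adjusted p under 0.05), and of the 11 tested NuRD genes 2 were higher and 1 lower. Of the 8 tested readers 0 were higher and 2 lower, of the 9 tested TET and base excision partners 4 were higher and 3 lower, and of the 18 replication and cycle genes 0 were higher and 3 lower. Their median log2 differences were 0.50, 0.11, 0.05, 0.18 and -0.46, beside 0.11 over all genes. With 33.1% of all genes called in this pair, the shares of these lists lay on both sides of the background.

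**Figure D3:**
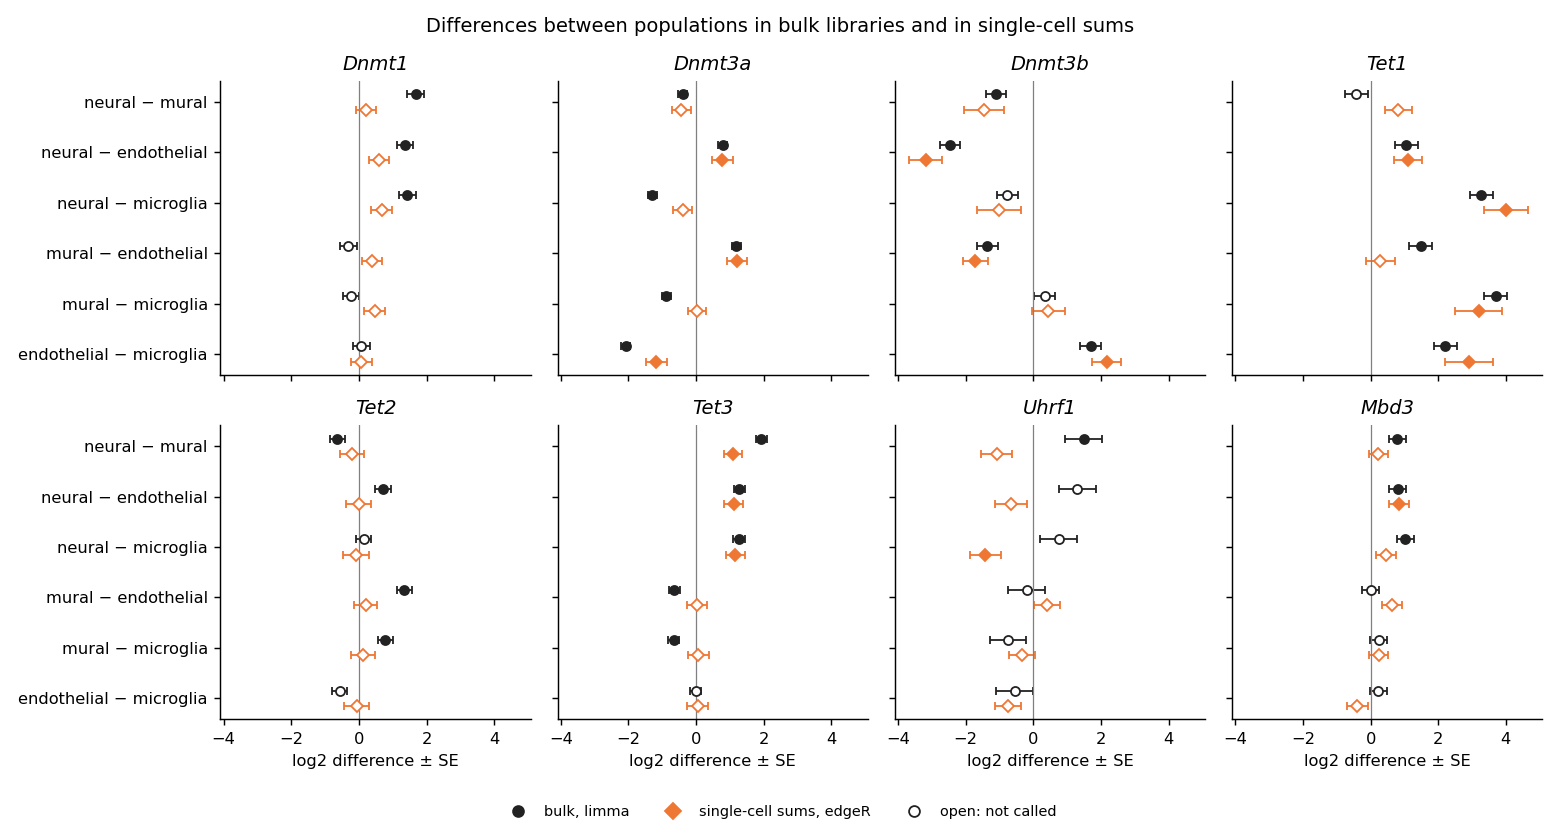
Log2 differences ± SE between each pair of populations for the 8 genes, from bulk libraries (black circles, limma) and from single-cell sums (orange diamonds, edgeR), filled where the adjusted p was under 0.05. The SE of edgeR is derived from its F statistic. *Dnmt3b* in endothelial cells, *Tet1* in microglia and *Tet3* in neural cells differ from each other population in the same direction and past the test in both assays, though the single-cell sums of *Dnmt3b* overlapped those of mural cells and microglia and those of *Tet1* overlapped neural and mural cells, while the neural differences of *Uhrf1* point in opposite directions.

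**Figure D4:**
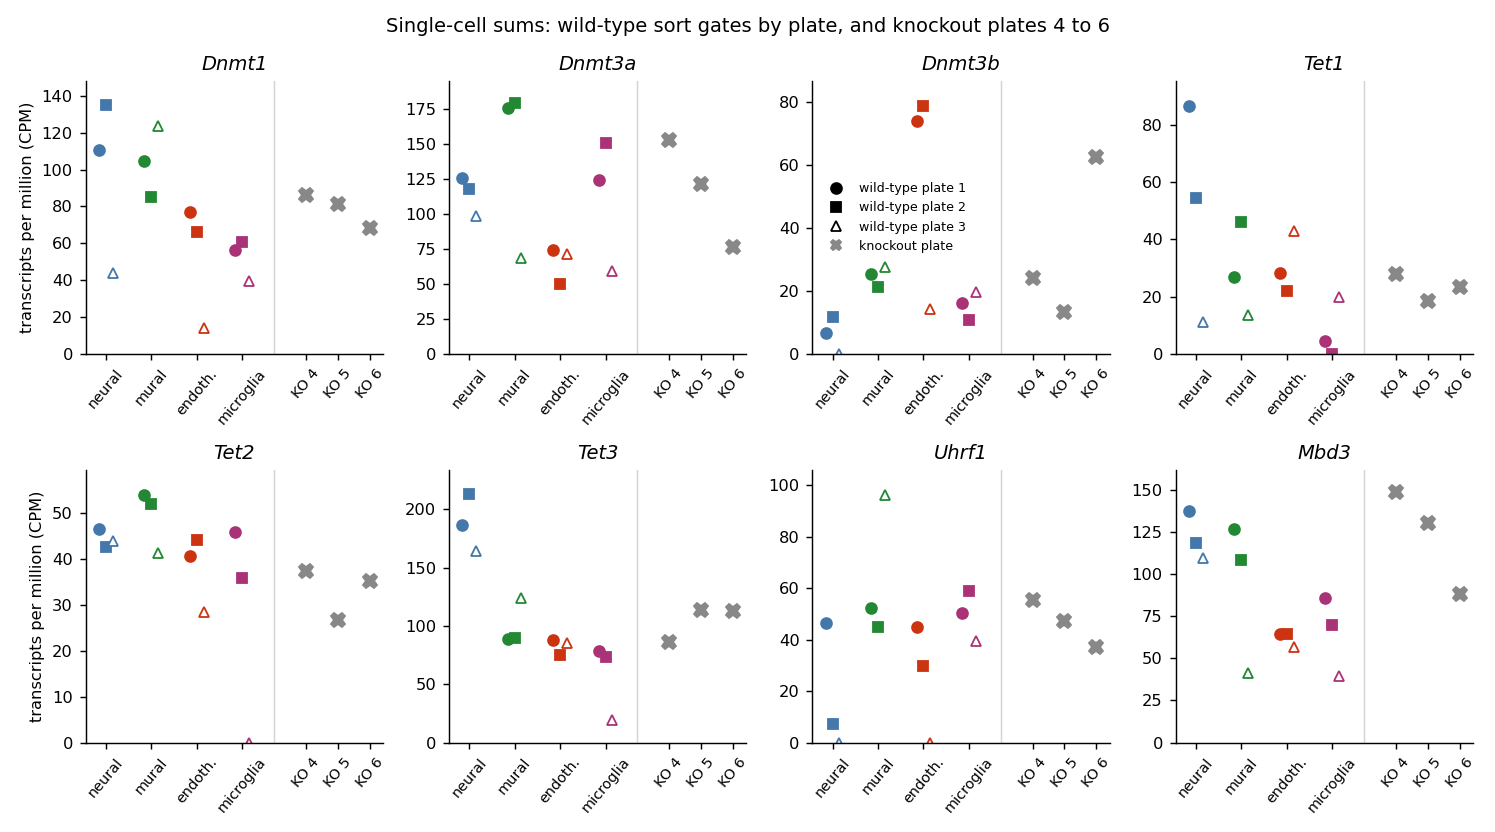
CPM of the 8 genes in the summed cells of each wild-type gate on plates 1 to 3 (plate 3, with 43 cells, as open triangles) and in all cells of knockout plates 4, 5 and 6, on linear axes from 0. *Dnmt3b* is at 62.4 CPM on plate 6 against 24.0 and 13.3 on plates 4 and 5.

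Neural-like cells, chosen by their markers whatever their gate, were split into those with leading progenitor markers and those with leading young neuron markers. On plates 1, 2 and 3, *Uhrf1* was at 73.4, 31.6 and 0 CPM in progenitor-like and at 12.2, 3.07 and 0 in neuron-like cells. These were 24, 5 and 0 against 4, 1 and 0 transcripts. *Dnmt1* was at 113, 215 and 36.8 against 104, 98.2 and 45.7, so only plate 2 set the classes well apart. On plate 3 it had 2 transcripts in each class, from 6 and 10 cells. *Tet3* was higher in neuron-like cells on each plate, at 165, 107 and 73.5 in progenitor-like and 210, 236 and 297 in neuron-like cells. On plate 3 this was 4 against 13 transcripts. The split followed the cycle, with *Mki67*, a marker of dividing cells, at 358, 557 and 497 CPM against 15.2, 21.5 and 0. Between the classes 14 of the 160 wild-type neural-like cells lay within 0.2 log2 units of the line that parts them, so the classes are a range. These values were not tested.

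Plates 4, 5 and 6 addressed the loss of MOF. *Kat8* was at 12.7, 10.4 and 11.2 CPM on them, and in the wild-type gates at 0 to 59.1 CPM, with 20 to 26 transcripts per gate. Which part of the gene was deleted is not given in the sources used here, and transcripts counted at their 3′ ends do not check the knockout. By marker genes, plate 4 held 273 mural-like and 62 neural-like cells, plate 5 held 81 microglial-like and 114 neural-like cells, and plate 6 held 297 endothelial-like, 44 neural-like and 9 mural-like cells. Each of the other populations thus came from 1 knockout plate, apart from those 9 mural-like cells and 2 endothelial-like cells on plate 4, and its genotype and plate cannot be told apart.

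The levels of the members on these plates stand beside those of the same classes in wild type. In endothelial-like cells of plate 6 *Dnmt3b* was at 72.8 CPM, with a transcript in 27.6% of cells (22.6 to 33.1), against 82.6, 78.9 and 22.8 CPM in the wild-type endothelial-like cells. In microglial-like cells of plate 5 *Tet1* was at 4.93 CPM, with a transcript in 4.94% of cells (1.36 to 12.2), against 5.54, 0 and 19.7. *Dnmt3a* was at 131 CPM in mural-like cells of plate 4 against 196, 187 and 86.7, at 123 in microglial-like cells of plate 5 against 119, 151 and 59.1, and at 59.7 in endothelial-like cells of plate 6 against 69.8, 50.5 and 45.5. With 1 knockout plate each, these pairs have no test.

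Neural-like cells were found on all 6 plates, 84, 60 and 16 in wild type and 62, 114 and 44 in the knockout, and were tested. Of the 160 wild-type cells, 123 came from the neural gate, 15 from wells with a medium or low PDGFRβ gate and the rest from the mural and endothelial gates. Without the 15, 0 members were called by edgeR (adjusted p 0.793 to 0.907), in a fit added after seeing the data. In that fit 424 of 7164 genes had an unadjusted p under 0.05. *Kat8* itself was at 24.4, 28.9 and 10.2 CPM in wild type and at 5.04, 7.61 and 22.9 in the knockout (log2 difference -1.16, SE 0.59, adjusted p = 0.897). The groups overlapped, and the counts behind them were 31 transcripts in wild type and 17 in the knockout. *Mbd3* was at 125, 124 and 122 CPM in wild type and at 183, 176 and 173 in the knockout. Its groups did not overlap, as was the case for 11.3% of the 7444 genes tested, so 1 such member says nothing particular to these genes (log2 difference 0.55, SE 0.23, unadjusted p = 0.0398), and it did not pass the adjustment over 7444 genes (adjusted p = 0.897).

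The other members overlapped between genotypes. *Uhrf1* was at 42.7, 12.4 and 0 CPM in wild type and at 63.9, 58.7 and 26.1 in the knockout (log2 difference 1.15, SE 0.60, adjusted p = 0.897). *Dnmt3a* was at 131, 116 and 91.7 against 237, 121 and 144 (0.57, SE 0.30, adjusted p = 0.897), and *Dnmt1* at 108, 136 and 40.7 against 82.4, 102 and 65.4 (-0.22, SE 0.33, adjusted p = 0.941). The TET genes had lower means in the knockout, *Tet1* with 83.9, 57.8 and 20.4 against 50.5, 30.4 and 22.9 (-0.72, SE 0.41, adjusted p = 0.897), *Tet2* with 36.6, 43.4 and 40.8 against 37.0, 20.7 and 22.9 (-0.51, SE 0.38, adjusted p = 0.897) and *Tet3* with 188, 194 and 173 against 128, 148 and 190 (-0.25, SE 0.25, adjusted p = 0.92). None of these differences passed the test. *Dnmt3b*, with 8 transcripts in wild type and 11 in the knockout, was too low to be tested.

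Of the 7 members tested 0 were called by edgeR and 0 by DESeq2, and 1 had an unadjusted p under 0.05, beside a background of 0% of the 7444 genes called by edgeR, of which 361 had an unadjusted p under 0.05. Equal levels in the 2 genotypes were not shown by this. The make-up of the neural-like cells moved with the plates. The share of progenitor-like cells was 60 of 62 on plate 4, 52 of 114 on plate 5 and 17 of 44 on plate 6, and 42 of 84, 20 of 60 and 6 of 16 on the wild-type plates. The sum of the replication and cycle genes was 2225, 2554 and 2046 CPM in the knockout and 1570, 1544 and 1671 in wild type. The part of this make-up in the differences was not tested beyond the fits of each class, in which no member was called, and the difference of the knockout effect between the classes did not pass for any member (adjusted p = 1, *Uhrf1* 4.75, SE 1.83, unadjusted p = 0.0173).

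**Figure D5:**
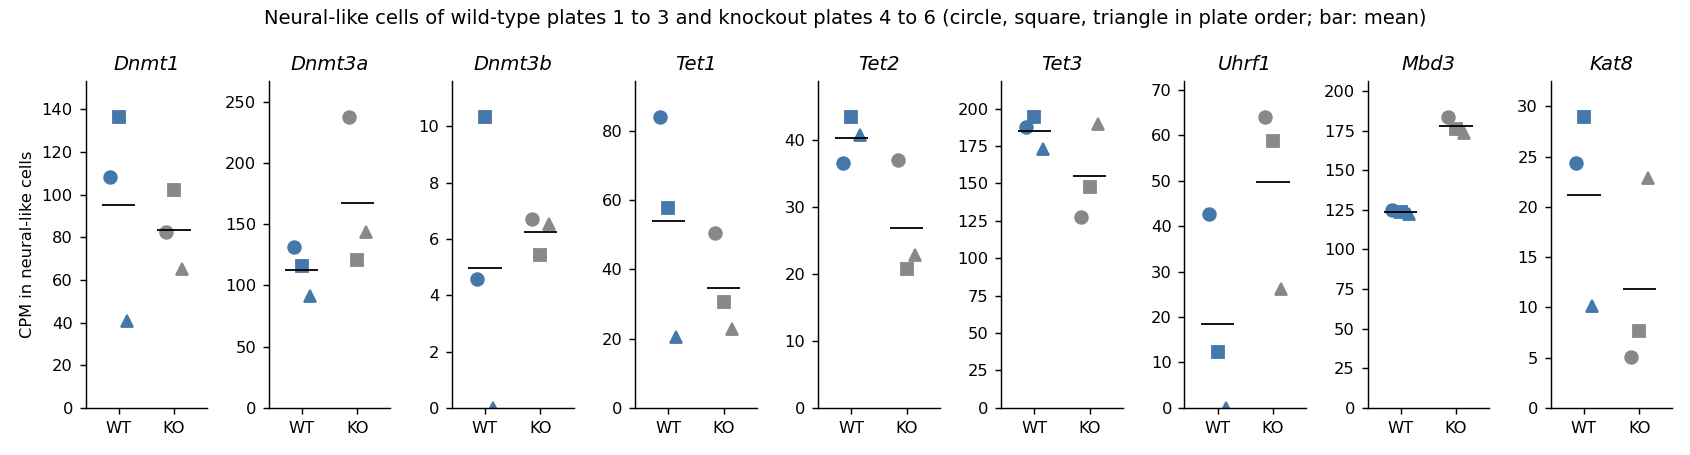
CPM of the 8 genes and of *Kat8* in neural-like cells of wild-type plates 1 to 3 and knockout plates 4 to 6, on linear axes from 0, with a symbol for each plate and a bar at the mean. *Mbd3* shows no overlap, 122 to 125 CPM against 173 to 183, as did 11.3% of all genes tested, and it did not pass the adjusted test.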

How the data were processed

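Bulk libraries and single cells of E14.5 mouse brain were analysed from the tables the authors deposited. The submitters' processing notes name mm10, BWA 0.6.2-r126, STAR, featureCounts and DESeq2 without roles. The deposited bulk values are normalized counts, treated as a signal: every library's values are whole reads times 1 factor (124078 of 124078 values up to 100 reads, 100%, within 0.01). The deposited single-cell values are expected counts, numbers of molecular identifiers corrected for repeated draws.

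Bulk populations were compared in R 4.3.3 by limma 3.58.1, allowing a mean-variance trend, after a pseudocount of 1 and a log2 transform. The fit held all 12 libraries without a block and the 19765 genes with a mean of at least 10. Single-cell sums per gate and plate, of cells with more than 1500 transcripts, were rounded and tested with edgeR 4.0.16 (TMM, quasi-likelihood test), which kept 9281 genes, and neural-like cells of knockout and wild-type plates likewise (7444 genes). Tests were two-sided, with Benjamini-Hochberg adjustment over all genes tested and a threshold of 0.05. Cells took the class of the marker list with the highest mean log2 expression, and wild-type gates came from the deposited cell table. No 2 cells held identical values, and doublets were not called. Replicate libraries differed by more than counting noise. The chi-square per degree of freedom was 6.98 to 13.1 between neural libraries and 60.9 to 161 between those of the other populations. Levels per kb used the exon union of the annotation of the same build. Intervals of shares are exact (Clopper-Pearson).

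The 8 genes and the lists of partners were chosen with earlier results of these data known. All 8 members were named in each comparison, together with, from each list, the 3 genes of largest absolute log2 difference among bulk calls. Alternatives covered the pseudocount, filters, scaling, tool (DESeq2 1.42.0), minimum depth, thinning, replicate blocks and each replicate left out. The fits were tested on simulated data. The paper gives 3 brains for the wild-type single cells. Whether single-cell plates were separate brains is not given in the sources used here.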

Additional observations from a re-analysis of the deposited data

Results flagged for a closer look

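Wild-type wells sorted with a medium or low PDGFRβ gate belong to none of the 4 gates compared and entered no comparison by gate, although by their markers 15 of their cells were among the neural-like and 8 among the mural-like cells of wild type. Their 23 cells with more than 1500 transcripts, 164145 transcripts in all, nevertheless held a signal of 7 of the 8 genes above the limit that a count of 0 allows. *Dnmt3a* was at 219.4 CPM, *Tet3* at 182.9, *Mbd3* at 109.7, *Dnmt1* at 97.5, *Tet1* at 73.13, *Uhrf1* at 36.56 and *Tet2* at 30.47. *Dnmt3b* gave 1 transcript. A *Dnmt3a* transcript was found in 16 of the 23 cells (69.6%, exact 95% interval 47.1 to 86.8) and a *Tet3* transcript in 11 (47.8%, 26.8 to 69.4).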

How the results depend on the processing

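Over all alternatives the 48 bulk differences of the 8 genes kept their side of the threshold in 903 of 960 cases, lost the call in 43 and gained one in 14. No called difference turned in sign, and 18 uncalled ones did. With edgeR on the recovered reads (10392, 10711, 11217, 4704, 6680 and 5301 of 19437 genes called over the 6 pairs), with pseudocounts of 0.5 and 10 and with the replicate block for the brain, whose residuals correlated at only -0.054 to 0.0801, no call among the 48 differences changed. Quantile normalization ended those of *Uhrf1* (adjusted p = 0.0691) and *Mbd3* (0.0604) against mural cells and of *Tet1* (0.11) and *Tet2* (0.132) against endothelial cells. It and TMM scaling added *Dnmt3b* between neural cells and microglia (0.00564 and 0.049). Without a filter *Tet2* (0.0511) and *Uhrf1* (0.0569) were lost against mural cells. With only the 2 populations compared in the fit, *Tet3* between mural and endothelial cells (0.0745) and *Tet2* between mural cells and microglia (0.0649) were lost, *Tet1* between neural and mural cells (0.0364), *Dnmt3b* (0.0315) and *Uhrf1* (0.00155) between neural cells and microglia were gained, and 2840 genes in place of 5496 were called between mural and endothelial cells. Leaving out 1 library gave 3 to 7 members called between neural and mural cells, 4 to 7 between neural and endothelial cells, 5 to 6 between neural cells and microglia, 4 to 6 between mural and endothelial cells, 3 to 5 between mural cells and microglia and 3 to 4 between endothelial cells and microglia.

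In single-cell sums the members called between neural and mural cells were 2 without a filter, 2 at a minimum of 3000 transcripts, 3 with no minimum and 3 with the replicate block for the plate, in place of 1, the additions being *Dnmt3b*, *Uhrf1* or both. The block also added *Dnmt1* between neural cells and microglia (0.705, adjusted p = 0.0494). Between neural and endothelial cells *Dnmt3a* was lost at a minimum of 3000 transcripts (0.0803) and with no minimum (0.104), and the members called were 2 with DESeq2 and 2 without a filter in place of 5, and between mural and endothelial cells 0 with DESeq2 in place of 2. Without 1 plate they ran from 0 to 3, 0 to 5, 1 to 5, 0 to 3, 0 to 1 and 0 to 3 over the 6 pairs, in the order of the report. DESeq2 called 1638, 1943, 2872, 790, 1999 and 1858 genes over the same pairs where edgeR called 3069, 3381, 4116, 1919, 3498 and 3358. *Dnmt3b* was not tested without plate 1 or 2. In the single-cell sums 21 differences turned in sign, all uncalled. Of the differences that had an unadjusted p under 0.05 or groups that did not overlap, and of those in the knockout, these turned: *Tet1* between neural and mural cells without plate 1 (-0.0768), *Tet3* between mural and endothelial cells without plate 2 (-0.0252), and in the knockout *Dnmt1* without plate 2 (0.0635) and *Tet3* in progenitor-like cells (0.0343). The cause was not tested. In the knockout 0 members were called in every fit, with 0 to 0 when 1 plate was left out, while the genes called over the whole table were 2 with DESeq2, 85 without a filter, 3 in neuron-like cells, 2 without plate 4 and 1 without plate 5, in place of 0. The depth of plate 3, with 43 cells, limits every value of it, and shares of cells fell in all gates on thinning.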

Other observations

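Each knockout plate was split into 4 libraries of 96 wells, and the whole plates gave levels that belong in no comparison, since their populations differ. *Dnmt3b*, the de novo methyltransferase led by endothelial cells in wild type, ran from 37.1 to 92.7 CPM over the libraries of plate 6, from 19.2 to 27.3 on plate 4 and from 5.56 to 20.7 on plate 5. *Dnmt3a* ran from 51.5 to 105 CPM on plate 6, from 136 to 170 on plate 4 and from 107 to 139 on plate 5. *Tet3* overlapped between plates, with 75.2 to 94.2, 93.5 to 145 and 91.0 to 141 CPM on plates 4, 5 and 6.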
